A study of Mus musculus with 12 samples.

Results

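The genes described here are the liver X receptors (LXRs), a set of genes that LXRs are known to switch on, and the stearoyl-CoA desaturases (SCDs), measured in mouse heart muscle under diabetes and angiotensin IV. They were found by gene symbol in the platform annotation, and the probe set of each gene was chosen by its mean signal over all 12 arrays, the highest being taken. The list of genes was drawn up with differences between these groups already known. Of the 10 genes sought, 7 had a named probe set, out of 19505 genes with one: Nr1h3, Abca1, Abcg1, Lpcat3, Mylip, Scd1 and Scd4. Nr1h2, Srebf1 and Scd2, which encode LXR-beta, SREBP-1 and SCD2, matched no probe set and are not analysed here. Each of the 7 had 1 named probe set, so the choice by signal changed nothing. All 7 passed the filter on dim genes.

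Myocardium was profiled on 12 Affymetrix arrays, 4 in each of 3 groups. The AngIV mice were diabetic from streptozotocin, which kills the insulin-producing beta cells, and had angiotensin IV, a short fragment of angiotensin II, infused at 2.88 mg/kg/day from the end of week 8 to the end of week 24. The DM mice were diabetic from streptozotocin and had no angiotensin IV, and the labels name no vehicle infusion. The NC mice were injected with vehicle and were not diabetic. Intraperitoneal injections ran for 5 days in all groups, diabetic mice were kept if their fasting glucose was at least 16.7 mM at 2 weeks, and the labels give 6 months for the tissue. Strain, sex and the piece of heart taken are not given in the sources used here. Groups follow the sample titles. A disease state tag in the labels goes against the titles: it marks NC as diabetic and AngIV as a control.

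LXRs are nuclear receptors that sense oxysterols, the oxidised forms of cholesterol. Paired with a retinoid X receptor on DNA, they turn on genes that move cholesterol out of cells, stop its uptake, remodel membrane phospholipids and, through SREBP-1c, make fatty acids. SCDs put a double bond into stearoyl-CoA and palmitoyl-CoA, giving the monounsaturated fatty acids used in membranes and stored fat. Scd1 is the isoform of liver and fat, while Scd4 is known as the isoform of mouse heart. The Scd genes lie next to each other on mouse chromosome 19 and resemble each other in sequence. Whether a probe set for 1 of them also takes up RNA of another was not tested.

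The promoters of the genes that differed most between groups are shown because LXR targets are recognised by a DNA element called DR4, a pair of AGGTCA-type repeats spaced by 4 bases. RefSeq sequences (GRCm38.p6) were found for 7 of the 10 genes, as 10 promoters running from 250 bases before the start of a transcript to 50 after it. A match was any stretch on either strand with at most 3 mismatches to 12 fixed letters, AGGTCA, 4 free bases and AGGTCA. By this rule 21.9% of all 32851 promoters held a match, so a match is common. Among the genes sought it was met by Abca1, at positions -67 to -52 from the start, and by 1 of the 3 promoters of Srebf1, at -182 to -167. These are the matched sites, both read from the strand opposite to the gene, with the repeats in capitals and the spacer in lower case.
Abca1 site: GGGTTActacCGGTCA
Srebf1 site: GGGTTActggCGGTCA
The 250 bases before the start are printed next for the genes that were called in the joined diabetic hearts, 5′ to 3′ on the strand of the gene, with the DR4 match of Abca1 in capitals.
Abca1, chr4:53159896-53160145, minus strand: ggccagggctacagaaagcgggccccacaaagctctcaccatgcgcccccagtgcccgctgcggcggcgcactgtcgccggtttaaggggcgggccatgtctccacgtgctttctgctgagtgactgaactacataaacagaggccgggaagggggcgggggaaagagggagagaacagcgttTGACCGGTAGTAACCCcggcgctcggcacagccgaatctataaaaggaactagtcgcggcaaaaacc
Mylip, chr13:45389492-45389741, plus strand: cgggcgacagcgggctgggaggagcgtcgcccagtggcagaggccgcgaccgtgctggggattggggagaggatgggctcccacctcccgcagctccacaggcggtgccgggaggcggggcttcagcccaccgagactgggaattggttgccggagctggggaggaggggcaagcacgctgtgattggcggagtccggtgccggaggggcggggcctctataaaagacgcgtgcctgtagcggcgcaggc
Scd4, chr19:44333076-44333325, plus strand: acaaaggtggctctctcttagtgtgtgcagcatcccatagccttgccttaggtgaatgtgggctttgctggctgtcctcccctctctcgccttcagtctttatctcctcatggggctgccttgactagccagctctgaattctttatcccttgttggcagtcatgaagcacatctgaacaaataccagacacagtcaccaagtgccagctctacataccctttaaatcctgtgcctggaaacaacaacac
The fewest mismatches to DR4 were 5 in Mylip and 5 in Scd4. The DR1 element of the fatty acid receptors known as PPARs (AGGTCA, 1 free base and AGGTCA, at most 2 mismatches, both strands) was found in 3.86% of all promoters and in none of these 10. A DR1 and a DR4 match may share bases. Elements farther away were not searched.

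All values below are log2 signals after RMA, in which 1 unit is a doubling, and each probe set has its own scale, so levels are compared between groups and never between genes. Background was read from the negative controls of the arrays, whose 95% point averaged 5.53 in AngIV, 5.53 in DM and 5.48 in NC, and no fold is given where a group mean lies under it. All 9 cardiomyocyte markers lay above it on all 12 arrays. The mean of 7 atrial markers ran from 5.05 to 5.28 in AngIV, from 4.67 to 7.63 in DM and from 5.06 to 8.10 in NC (1 of the 7 was above the negative controls on all arrays), a spread within DM and within NC. In such bulk tissue, fewer cells of a type and less RNA per cell cannot be told apart. Differences were tested with limma on 13653 genes, and a gene is called at a Benjamini-Hochberg adjusted p under 0.05. Members were picked with earlier results of these data known, so their p-values are not independent evidence.

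Of the receptors, Nr1h3, which encodes LXR-alpha, was dim. It read 5.38, 5.19, 5.15 and 5.67 in AngIV replicates 1 to 4, 5.77, 5.58, 5.33 and 5.81 in DM and 5.45, 5.46, 5.38 and 5.39 in NC. Only 4 of 12 arrays exceeded their negative controls, and the groups overlapped. The differences on the log2 scale were -0.28 ± 0.13 (SE) for AngIV against DM (limma adjusted p = 0.567) and 0.20 ± 0.13 for DM against NC (limma adjusted p = 0.626). A difference in LXR-alpha RNA was not resolved on these arrays.

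**Figure D1:**
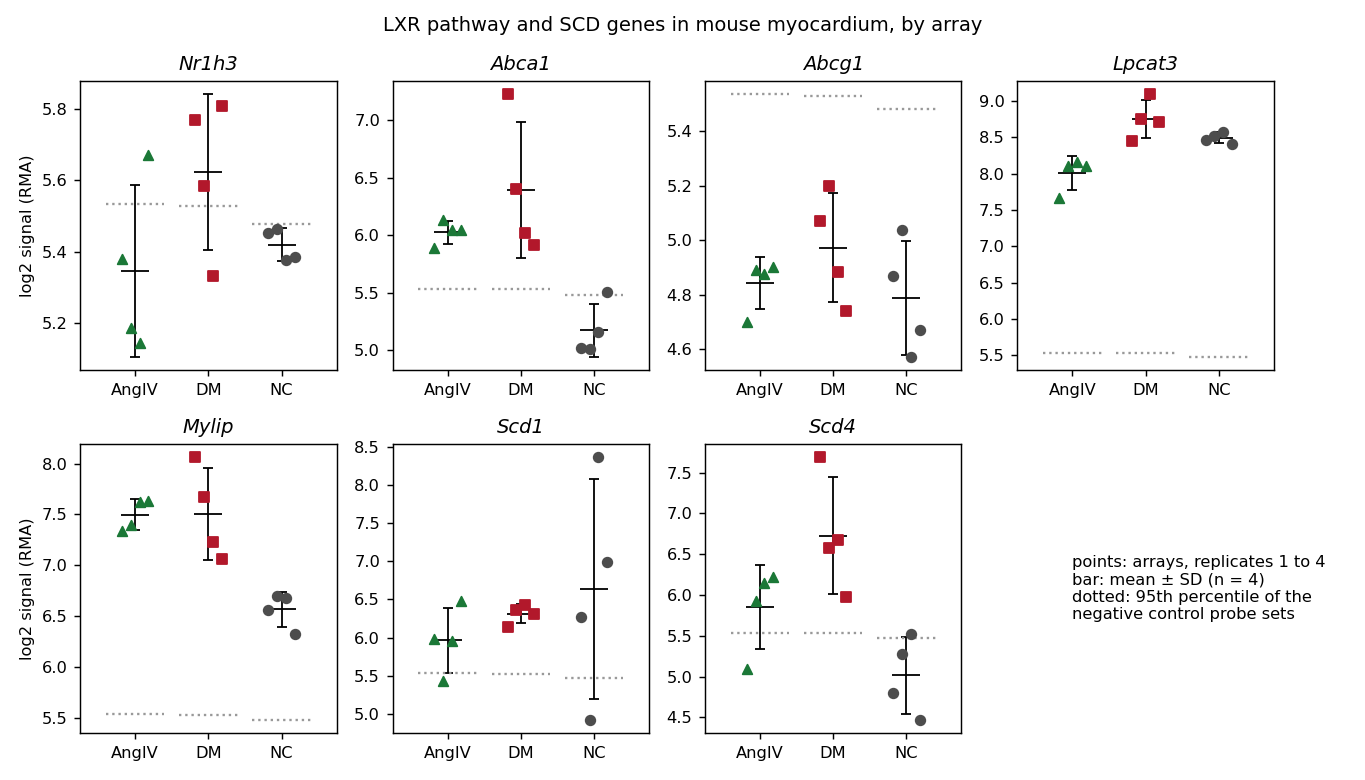
Log2 signal of each measured gene on each array, with AngIV, DM and NC from left to right, a bar for the mean ± SD (n = 4) and a dotted line at the 95% point of the group's negative controls. Abca1 and Mylip lie above every NC array in all 8 diabetic hearts, Lpcat3 is lowest in AngIV, and Scd1 spreads from 4.93 to 8.37 within NC.

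Abca1, which encodes the pump that hands cholesterol and phospholipid to lipid-poor apolipoprotein A-I, was higher in every diabetic heart than in any control heart. It read 5.88, 6.13, 6.04 and 6.04 in AngIV, 7.23, 6.40, 6.02 and 5.92 in DM, and 5.01, 5.01, 5.16 and 5.50 in NC. The DM hearts spread over 1 unit, with replicate 1 on top, while the AngIV hearts stood close together inside the DM range apart from replicate 1. Group means were 6.03 ± 0.10, 6.39 ± 0.59 and 5.17 ± 0.23 (SD, n = 4) in AngIV, DM and NC. DM and AngIV together against NC gave 1.04 ± 0.19 (SE) on the log2 scale, a rise past the threshold (limma adjusted p = 0.0188) that was lost without NC replicate 1, 2 or 3 (limma adjusted p = 0.0598, 0.0666 and 0.0558). Each diabetic group alone did not pass, at 1.22 ± 0.22 for DM (limma adjusted p = 0.0681) and 0.85 ± 0.22 for AngIV (limma adjusted p = 0.0551). Between AngIV and DM the log2 difference was -0.37, and its 95% interval ran from -0.84 to 0.10 (limma adjusted p = 0.643). Without DM replicate 1 it was -0.09. The NC mean of Abca1 lay under its negative controls, so these are differences from a near-background level and no fold is given.

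Abcg1, the related exporter that passes cholesterol to mature HDL particles, was under the negative controls on all 12 arrays. It ran from 4.70 to 4.90 in AngIV, from 4.74 to 5.20 in DM and from 4.57 to 5.04 in NC, and the groups overlapped. DM and AngIV together against NC gave 0.12 ± 0.11 (SE) on the log2 scale (limma adjusted p = 0.626), a difference between signals that the array does not separate from background.

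Mylip, also known as Idol, encodes the ubiquitin ligase that marks lipoprotein receptors for destruction and so lowers cholesterol uptake. It lay above background in every group. The AngIV hearts read 7.33, 7.40, 7.63 and 7.64, the DM hearts 8.07, 7.67, 7.23 and 7.06, and the NC hearts 6.56, 6.70, 6.67 and 6.32. The lowest diabetic heart thus stood above the highest control. Means were 7.50 ± 0.16 in AngIV, 7.51 ± 0.45 in DM and 6.56 ± 0.17 in NC (SD, n = 4). Mylip rose 1.92-fold in DM and AngIV together against NC (0.94 ± 0.16 SE on the log2 scale, limma adjusted p = 0.0134). In AngIV against NC it rose 1.91-fold (limma adjusted p = 0.0165), a call lost without AngIV replicate 3 or AngIV replicate 4 (limma adjusted p = 0.0553 and 0.0559) and with the macrophage markers below as a covariate (limma adjusted p = 0.188). In DM against NC the ratio was 1.92 and did not pass (limma adjusted p = 0.0681). Between AngIV and DM no difference was resolved, at -0.01 on the log2 scale and a 95% interval of -0.39 to 0.38 (limma adjusted p = 0.996).

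Lpcat3, which encodes the acyltransferase that loads arachidonate and linoleate into membrane phospholipids, followed another order, with AngIV lowest. Its log2 signals were 7.67, 8.10, 8.16 and 8.11 in AngIV, 8.46, 8.75, 9.09 and 8.71 in DM and 8.47, 8.53, 8.58 and 8.41 in NC. Every AngIV heart lay below every DM heart and below every NC heart, while DM and NC overlapped. The AngIV mean was 8.01 ± 0.23, against 8.75 ± 0.26 in DM and 8.50 ± 0.07 in NC (SD, n = 4). The ratio to DM was 1.67-fold lower in AngIV (-0.74 ± 0.14 SE on the log2 scale, 95% interval from -1.03 to -0.45). Lpcat3 stood at rank 6 of 13653 by p in this comparison, and it did not pass (limma adjusted p = 0.179). Against NC, AngIV was 1.40-fold lower and did not pass either (limma adjusted p = 0.0749).

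Scd4 had its highest group mean in DM. It read 5.10, 5.93, 6.15 and 6.22 in AngIV, 7.69, 6.57, 6.67 and 5.98 in DM, and 4.79, 5.28, 5.52 and 4.47 in NC. All 4 DM hearts lay above all NC hearts, and 3 of 4 AngIV hearts did, with AngIV replicate 1 inside the NC range. Group means came to 5.85 ± 0.52, 6.73 ± 0.71 and 5.02 ± 0.47 (SD, n = 4) in AngIV, DM and NC. Scd4 rose in DM and AngIV together against NC by 1.27 ± 0.28 (SE) on the log2 scale (limma adjusted p = 0.0424), a call that was kept without DM replicate 1, DM replicate 4 or AngIV replicate 1 and lost without any 1 of the other 9 arrays (limma adjusted p = 0.0518 to 0.125). DM against NC gave 1.71 ± 0.33 (limma adjusted p = 0.0681) and AngIV against NC 0.83 ± 0.33 (limma adjusted p = 0.189). AngIV against DM was 1.84-fold lower, -0.88 on the log2 scale with a 95% interval from -1.58 to -0.18, and did not pass (limma adjusted p = 0.503). Without DM replicate 1 it was -0.56. As with Abca1, the NC mean was under the negative controls and has no fold.

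Scd1 showed no difference that passed, and its spread was widest in the NC group. The AngIV hearts read 5.98, 5.44, 5.95 and 6.48, the DM hearts 6.14, 6.37, 6.43 and 6.32, and the NC hearts 6.27, 4.93, 8.37 and 6.98. NC replicates 2 and 3 were the lowest and the highest of all 12 arrays. The SD was 0.43 in AngIV, 0.13 in DM and 1.43 in NC. DM against NC gave -0.32 ± 0.49 (SE) on the log2 scale (limma adjusted p = 0.866), and the sign turned to 0.25 without NC replicate 3.

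Genes known for their expression in liver moved with Scd1 from array to array. The mean of 11 liver markers, a list written after the Scd1 values were seen, was 5.05, 4.07, 4.60 and 6.30 in AngIV, 4.83, 4.93, 5.34 and 4.88 in DM, and 4.86, 3.68, 7.92 and 5.83 in NC. None of the 11 was above the negative controls on all arrays, and 2 were on none. The lowest and highest arrays of the mean were NC replicates 2 and 3, as for Scd1. The part of liver genes in the Scd1 values was tested only by a covariate. Albumin, Alb, read 3.53 on NC replicate 2 and 11.0 on NC replicate 3. With the liver mean as a covariate the standard error of the Scd1 difference was 0.16, against 0.49 without it. The log2 differences were then -0.36 for AngIV against DM, -0.27 for AngIV against NC and 0.09 for DM against NC, and none passed (limma adjusted p = 0.493, 0.35 and 0.895). The mean of 8 named adipocyte markers ran from 4.22 to 4.75 in AngIV, from 4.47 to 4.63 in DM and from 4.24 to 5.23 in NC. Of the 8, 5 were under the negative controls on all arrays, and 1, Fabp4, was above them on all arrays. With this mean as a covariate the Scd1 difference for DM against NC was 0.34 and did not pass (limma adjusted p = 0.833). The adipocyte markers did not move as 1 set. Fabp4 ran from 11.1 to 11.3 in AngIV, from 11.1 to 11.4 in DM and from 10.7 to 10.9 in NC. From NC replicate 2 to NC replicate 3, Car3 rose from 2.71 to 7.07 and Pck1 from 3.90 to 5.45, as Alb rose. Fabp4, Plin1 and Lep fell between the same arrays. Whether this covariate reads fat apart from liver was not tested.

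**Figure D2:**
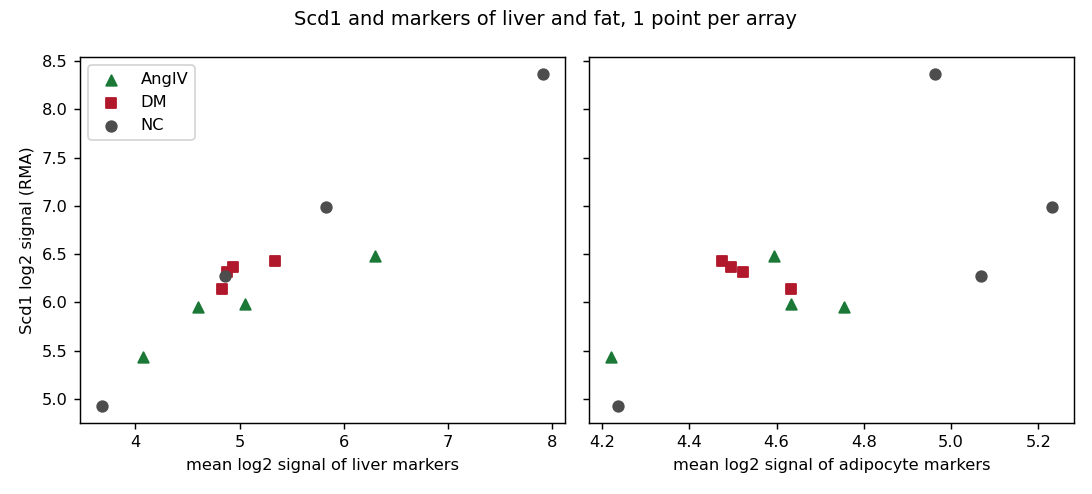
Scd1 log2 signal against the mean log2 signal of 11 liver markers (left) and 8 adipocyte markers (right), 1 point per array, with AngIV, DM and NC marked by colour and shape. Scd1 and the liver mean are lowest together on NC replicate 2 and highest together on NC replicate 3.

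Taken by comparison, limma called 0 of the 7 genes in DM against NC, where it called 0.022% of all genes. Abca1, Mylip and Scd4 lay above NC on all DM arrays, which held for 2.84% of all genes, and 3 of the 7 had an unadjusted limma p under 0.05, higher in DM, against 5.62% of all genes. Without DM replicate 4 these 3 genes were called, among 30 of all genes, against 3 of all genes with every array. The median log2 change of the 7 was 0.25, against -0.00164 over all genes. In AngIV against DM limma called 0 of the 7, and 0% of all genes. All 7 had a negative difference in AngIV, while 52.9% of all genes had one above 0, and their median was -0.35 against 0.01 over all genes. The smallest of the 7, Mylip at -0.01, was above 0 in 6 of 26 alternative settings. Lpcat3 lay below DM on all AngIV arrays, as did 2.19% of all genes, and 2, Lpcat3 and Scd4, were lower at an unadjusted limma p under 0.05, against 3.51% of all genes. In AngIV against NC 1 of the 7 was called higher, against 1.52% of all genes, with a median of 0.06. Abca1 and Mylip lay above NC on all AngIV arrays, as did 7.59% of all genes, and Lpcat3 lay below, as did 5.17%. In DM and AngIV together against NC 3 of the 7 were called higher, against 0.908% of all genes, and 0 lower, against 0.41%, with a median of 0.12. Abca1 and Mylip lay above NC on all 8 diabetic arrays, as did 1.44% of all genes. These comparisons share arrays, and the genes were picked with results known, so the counts are descriptions.

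**Figure D3:**
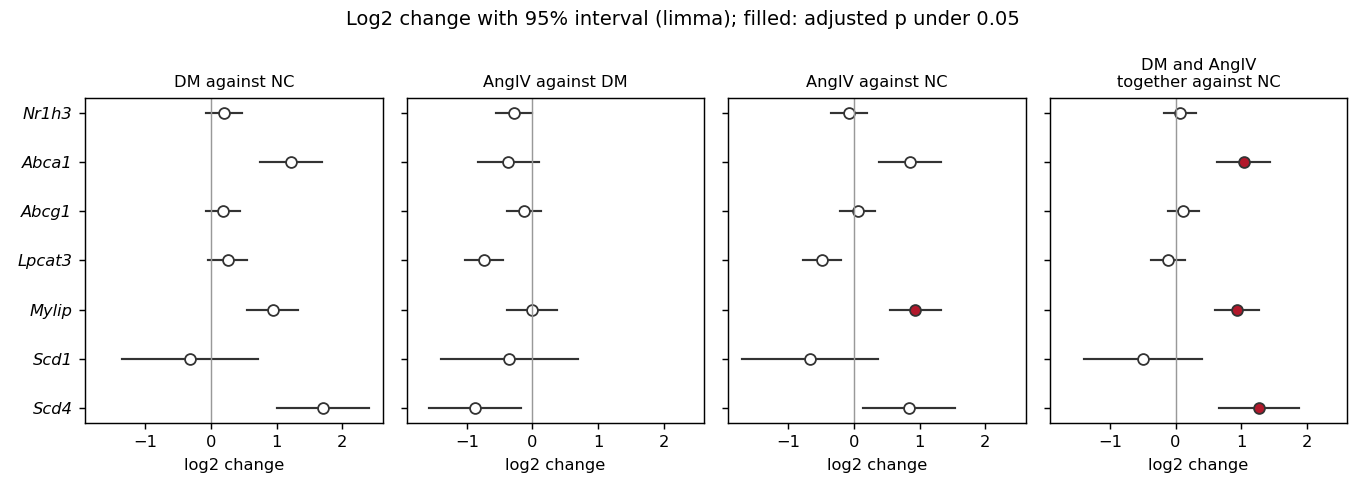
Log2 change of each measured gene with its 95% interval in DM against NC, AngIV against DM, AngIV against NC, and DM and AngIV together against NC; filled points have a limma adjusted p under 0.05. Abca1, Mylip and Scd4 are filled in the last comparison and Mylip alone in AngIV against NC.

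The array-to-array patterns of Abca1, Mylip and Scd4 were alike in DM, while in NC Abca1 went apart from the other two. With group means removed, Pearson's r over the 12 arrays was 0.851 for Mylip and Scd4, 0.704 for Abca1 and Mylip and 0.575 for Abca1 and Scd4. In DM, the group of widest spread, all 3 were highest on replicate 1 and lowest on replicate 4. In NC replicate 4 was the highest for Abca1 and the lowest for Mylip and for Scd4. Lpcat3 stood apart, with r of -0.466, -0.233 and 0.164 to Abca1, Mylip and Scd4. The 12 arrays hold only 3 groups and were normalised together, and these r are descriptions.

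Macrophage markers moved with the 3 genes in part. Macrophages are a cell type rich in LXR activity. The mean of 11 named macrophage markers was 6.28, 6.46, 6.24 and 5.64 in AngIV, 6.66, 5.92, 6.10 and 5.55 in DM, and 5.80, 5.53, 5.60 and 5.61 in NC, with 5 of the 11 above the negative controls on all arrays and 2 on none. Mertk, in this list, is also known as an LXR target. In DM the list was highest on replicate 1 and lowest on replicate 4, as were the 3 genes. In AngIV it was lowest on replicate 4, where Mylip and Scd4 were highest. Fewer or more macrophages and a change within cells cannot be told apart here. With this mean as a covariate, the log2 change in DM and AngIV together against NC was 0.72 ± 0.20 (SE) for Abca1, 0.76 ± 0.18 for Mylip and 0.97 ± 0.34 for Scd4. None was then called (limma adjusted p = 0.262, 0.185 and 0.352), and 4 genes in all were, against 180 without it. With the atrial mean as a covariate all 3 stayed called, at 1.07, 1.0 and 1.31.

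**Figure D4:**
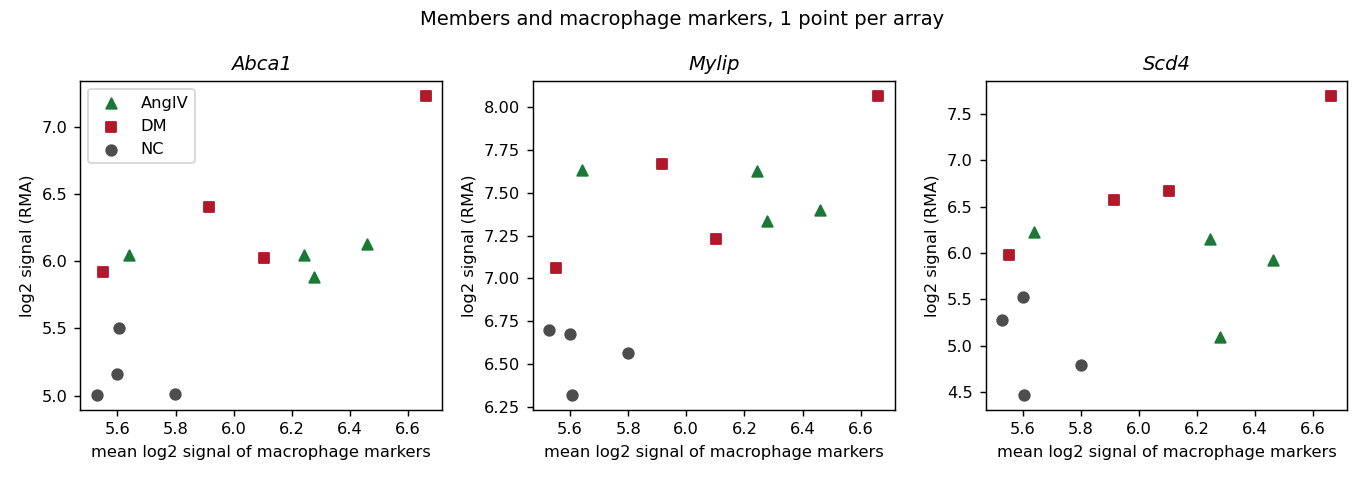
Log2 signal of Abca1, Mylip and Scd4 against the mean log2 signal of 11 macrophage markers, 1 point per array, with AngIV, DM and NC marked by colour and shape. The NC arrays sit together at the lower left, and DM replicate 4 and AngIV replicate 4 lie above them at a like macrophage mean.

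The genes whose pattern over the 12 arrays was most like a member's were found by Pearson's r among all tested genes. Nearest to Abca1 were Hpcal1, a neuronal-type calcium sensor, at r = 0.955, Slc43a2, an amino acid transporter, at 0.935, Apod, a lipid-carrying apolipoprotein, at 0.933, and the interferon-inducible Ifi211 at 0.912. With group means removed these r were 0.918, 0.771, 0.792 and 0.827. Nearest to Scd4 were the acyl-CoA thioesterase genes Acot1 at 0.927 and Acot2 at 0.908, Ppil6 at 0.927 and the pyruvate dehydrogenase kinase gene Pdk4 at 0.904, and with group means removed 0.801, 0.771, 0.853 and 0.839 in the same order. Pdk4 read 7.34, 9.57, 8.98 and 8.67 in AngIV, 10.3, 9.73, 9.18 and 8.58 in DM and 8.03, 8.44, 8.36 and 7.32 in NC. AngIV replicate 1 was the lowest of its group for Pdk4, for Acot1 and for Scd4. Nearest to Scd1 were the urinary protein genes Mup3 at 0.957 and Mup2 at 0.951 and the antitrypsin genes Serpina1a at 0.957 and Serpina1c at 0.951, all products of liver, whose r was 0.954 to 0.963 with group means removed. Mup3 read 3.43 on NC replicate 2 and 9.45 on NC replicate 3. Mup, Serpina1 and Acot genes have close relatives, and cross-hybridisation among them was not tested.

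Other genes of the pathway were taken from lists written with earlier results of these data known. Among the DNA partners and corepressors of LXR, 9 of 11 were tested and 0 were called in any of the 4 comparisons. In DM and AngIV together against NC their median log2 change was 0.01, with 5 positive and 4 negative. The 2 with the smallest p there were Tbl1xr1, a corepressor subunit, at 0.28 ± 0.13 (SE), and Rxrg, the muscle-type retinoid X receptor, at -0.20 ± 0.13 (limma adjusted p = 0.283 and 0.48).

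Of 15 other LXR targets 9 were tested and 1, Apod, was called. Apod read 7.36, 7.26, 7.74 and 7.75 in AngIV, 9.0, 8.46, 7.28 and 7.08 in DM and 6.62, 5.94, 6.42 and 6.26 in NC. No control heart reached the diabetic ones, a pattern held by 1.44% of all genes, and DM replicate 1 was again the highest. Apod rose 2.70-fold in DM and AngIV together against NC (limma adjusted p = 0.0261). The call was lost without any 1 NC array, without DM replicate 2 and without AngIV replicate 3 (limma adjusted p = 0.0534 to 0.0899). With the macrophage mean as a covariate the log2 change was 1.05 and was not called (limma adjusted p = 0.311). It did not pass in DM (limma adjusted p = 0.0829) or in AngIV (limma adjusted p = 0.0644) alone. The median log2 change of the 9 was 0.17, with 6 positive, and 0 were lower past the threshold. Apoc1, the lowest at -0.74, was above its negative controls on 2 of 12 arrays and read 7.42 on NC replicate 3, where the liver mean was highest. The part of liver RNA in its change was not tested.

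The lipogenic targets of SREBP-1c, 13 tested of 16, were mixed, with 6 positive and 7 negative changes and a median of -0.03 in DM and AngIV together against NC. Of the negative ones, Fasn, Elovl5, Fads1, Fads2 and Thrsp were highest of all arrays on NC replicate 3 (6.25, 7.08, 5.39, 6.60 and 6.54). The liver mean was also highest on that array. Acly and Mlxipl, also negative, were not highest there. The part of liver RNA in these changes was not tested. The called gene of this list was Mid1ip1, whose product helps acetyl-CoA carboxylase assemble into active filaments. It read 7.36, 7.12, 7.14 and 7.28 in AngIV, 6.65, 7.23, 6.84 and 7.0 in DM and 6.21, 6.21, 6.52 and 6.46 in NC. Mid1ip1 rose 1.83-fold in AngIV against NC (limma adjusted p = 0.00573) and 1.65-fold in DM and AngIV together (limma adjusted p = 0.00872). All 8 diabetic hearts lay above all controls, as in 1.44% of all genes. In DM against NC the log2 change of Mid1ip1 was 0.58 and did not pass (limma adjusted p = 0.106). Scd3, in this list as the remaining SCD with a probe set, stayed between 2.20 and 2.60 on every array, too dim to be tested.

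Of 6 genes that make or steer SREBPs 5 were tested, and Srebf2, which encodes the cholesterol synthesis regulator SREBP-2, was called. It read 6.60, 6.55, 6.56 and 6.61 in AngIV, 6.48, 6.65, 6.74 and 6.60 in DM, and 6.91, 7.02, 6.86 and 6.92 in NC. Every AngIV heart lay below every NC heart, as in 5.17% of all genes, and every DM heart did so too. The share of all genes with both groups below NC is not given here. Srebf2 fell 1.25-fold in DM and AngIV together against NC, -0.33 ± 0.08 (SE) on the log2 scale (limma adjusted p = 0.0491), and -0.35 in AngIV against NC did not pass (limma adjusted p = 0.0519). The joint call was kept in 7 of 25 alternative settings. Among the fits without 1 array it was kept only without DM replicate 3 or DM replicate 4, and it was lost with the macrophage covariate (limma adjusted p = 0.333).

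The remaining lists gave no call in any comparison. Of the enzymes that make or clear oxysterols, 5 of 8 were tested, with a median log2 change of 0.06 in DM and AngIV together against NC. Cyp27a1, which makes 27-hydroxycholesterol, gave 0.26 ± 0.15 (SE), and Sult2b1, a sulfotransferase that was under the negative controls, -0.21 ± 0.12. Of the receptors that Mylip targets, Lrp8 was too dim to be tested and Vldlr, which takes up triglyceride-rich lipoproteins, gave 0.20 ± 0.08 (limma adjusted p = 0.238). The other lysophospholipid acyltransferases, 5 tested of 6, gave changes from -0.26 to -0.02 in DM and AngIV together against NC. All lay near background. Their median was -0.22, against 0.000511 over all genes, and Mboat2 was at -0.02 ± 0.17 (SE). Among them Mboat7 gave -0.24 ± 0.11 and Lpcat1 -0.22 ± 0.11 (limma adjusted p = 0.292 and 0.312).

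**Figure D5:**
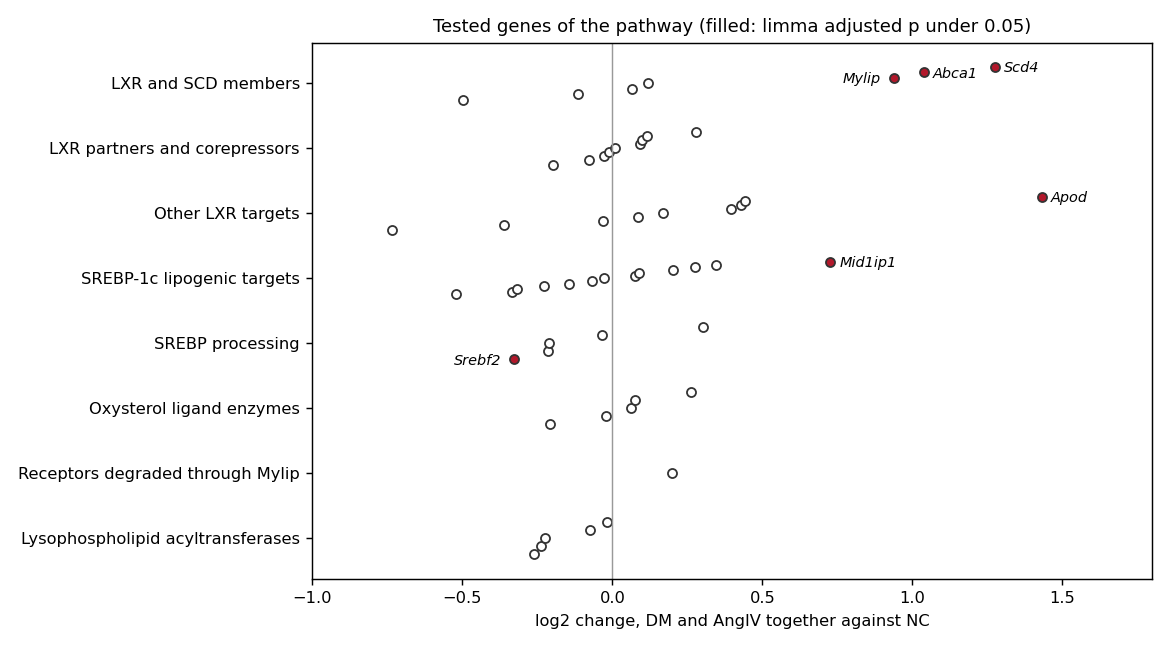
Log2 change in DM and AngIV together against NC (horizontal axis) for the tested genes of each list, 1 point per gene, with filled and named points at a limma adjusted p under 0.05. The filled points are Abca1, Mylip, Scd4, Apod and Mid1ip1 to the right of 0 and Srebf2 to the left.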

How the data were processed

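The authors deposited 1 table of log2 signals for 29129 probe sets on 12 arrays, made by RMA, which corrects background, brings arrays to a common distribution and summarises probes, per the submitters' processing notes. No raw scanner files were used here. The 6923 control probe sets served only to read background. Among the remaining 22206, 19572 carried 1 gene symbol and 2634 none, and all symbols matched RefSeq by Entrez ID. A gene was represented by its probe set of highest mean, giving 19505 genes, and the dimmest 30% were left out, leaving 13653.

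Groups were compared in 1 limma fit (version 3.58.1, under R 4.3.3) over all 12 arrays, with no covariate, and Benjamini-Hochberg adjustment over the 13653 genes. The script was checked on simulated data. The labels give 4 mice a group, and the number of arrays limits the precision. Array correlations ran from 0.961 to 0.986. The genes, lists and tests were chosen with earlier results of these data known, and the liver list after the Scd1 values were seen. From each pathway list the genes called in any comparison are named or, where none was, the 2 of smallest p in the joint comparison. Some further genes of the lists are named to show a limit. Likeness was ranked by Pearson's r over 12 arrays. Alternatives changed the prior, array weights, filter, centring, samples and covariates, and left out each array in turn.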

Additional observations from a re-analysis of the deposited data

Results flagged for a closer look

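In 3 of the 51 groups of 4 arrays examined (17 genes in 3 groups), 1 array stood far from the other 3 by Dixon's test, which chance gives in about 1 group in 20. Lpcat3 read 7.67 on AngIV replicate 1, against 8.10 to 8.16 on the other AngIV arrays, a gap of 0.878 of the range. Abcg1, under the negative controls throughout, read 4.70 on the same array, against 4.88 to 4.90, a gap of 0.871 of the range. Cyp27a1 read 6.54 on AngIV replicate 2, against 5.89 to 5.99, a gap of 0.843 of the range.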

How the results depend on the processing

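Of the 7 genes, limma called 0 in DM against NC, and 3 with an intensity trend, with the dimmest 50% left out or with only genes above the negative controls; leaving out 1 array gave 0 to 3, with 3 without DM replicate 4 (all genes 1 to 30 over the alternatives, against 3). AngIV against DM gave 0 under every alternative run, with 0 to 5 of all genes. AngIV against NC gave 1, against 3 with the trend, the dimmest 50% left out or only genes above the negative controls, 2 with the robust prior, array weights or only the groups compared, 0 with the macrophage covariate, and 0 to 2 without 1 array (0 without AngIV replicate 3 or 4, 2 without DM replicate 1 or 4); all genes ran from 9 to 633, against 293. DM and AngIV together against NC gave 3, against 0 with the macrophage covariate, 2 with the robust prior, no filter or the adipocyte covariate, and 1 to 3 without 1 array (1 without NC replicate 1, 2 or 3); all genes ran from 4 to 462, against 180. Its calls held in 24 of 25 alternatives for Mylip, 21 for Abca1, 11 for Scd4, 18 for Apod and 25 for Mid1ip1. Whether the replicate numbers pair the samples cannot be told from the arrays (r of same-numbered deviations from group means, -0.115 to 0.208). With the replicate block the counts were 0, 0, 1 and 2, with 138 genes in all in the last. Scd4 then lost its call (limma adjusted p = 0.0651). The sign of Scd1 in DM against NC, -0.32 with every array, turned to 0.25 without NC replicate 3. It also turned with the adipocyte and liver covariates (0.34 and 0.0861), and stayed negative, at -0.90, without NC replicate 2. In the joint comparison Scd1 ran from -1.07 to 0.0771 without 1 array, above 0 without NC replicate 3. With the adipocyte covariate it was 0.15. Mylip turned in AngIV against DM, at 0.0445 with array weights and 0.15 with the atrial covariate. Without 1 array it ran from -0.16 to 0.18, above 0 without DM replicate 1 or 2 or AngIV replicate 1 or 2. In the same comparison Apod turned to 0.0151 with the atrial covariate. Srebf2 there ran from -0.0824 to 0.00112 without 1 DM array, above 0 without replicate 3. In AngIV against NC Nr1h3 turned to 0.0428 with the macrophage covariate. Abcg1 in that comparison ran from -0.0169 to 0.139 without 1 array, below 0 without NC replicate 3. With the adipocyte covariate it was -0.0371. The causes of these turns were not tested. The adipocyte and liver covariates and the limit to genes above the negative controls were chosen after seeing the data.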
